A study of Homo sapiens with 19 samples.

Results

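Of the 4 genes that mark the cells described here, SCEL and SPRR3 are known from the upper layers of squamous epithelium. The cells are KRT5-negative epithelial cells of human liver organoids. They were chosen by measured expression: a cell needed at least 500 detected genes, at most 20% of its UMIs (unique molecular identifiers, 1 per captured transcript) from mitochondrial genes, a UMI in at least 2 of the 4 genes SCEL, CLIC3, SPRR3 and IGFL2, and 0 UMIs of the basal keratin KRT5. The rule kept 1233 of the 34289 filtered cells in the 5 libraries of organoids labelled ULA (grown in ultra-low-attachment plates), and 1067 of the 16753 cells at day 34. Over all 19 libraries of the series 120240 cells passed the same filter.

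All organoids were grown from W01, a wild-type human pluripotent stem cell line held by WiCell, and each library was made with 10x Genomics 3' chemistry. The ULA organoids had no treatment and were sampled at day 21 in 3 libraries and at day 34 in 2. The other 14 libraries came from day 25 organoids labelled OS (grown on an orbital shaker): untreated, treated with TGF-beta1, palmitic acid (PA) or oleic acid (OA), and a control for each of these, with 2 libraries in each of the 7 groups. At day 34 and day 25, but not at day 21, the organoids were washed once more and spent 10 further minutes in trypsin, so age and dissociation cannot be told apart in any comparison of days. Nothing in the labels says that replicates were separate cultures, so spreads and p-values cover differences between libraries that may be technical. Cells of 1 library are not replicates, and every comparison was read library by library.

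A stratified squamous epithelium is renewed from a basal layer that makes KRT5, KRT14 and the transcription factor TP63 and is held to the basement membrane by hemidesmosomes. Cells that leave this layer stop making KRT5 and KRT14 and make KRT4 and KRT13 in wet mucosa or KRT1 and KRT10 in skin, with proteins of the cornified envelope such as involucrin and the small proline-rich (SPRR) proteins. SCEL (sciellin) and SPRR3 are envelope precursors of such cells, CLIC3 is an intracellular chloride channel family protein, and IGFL2 is a small secreted insulin growth factor-like protein. Uroplakins are membrane proteins of a different lining, the umbrella cells of the urinary tract. No squamous layer is part of the liver.

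The 250 bases before the start of 6 genes are shown because SCEL, SPRR3, CLIC3 and IGFL2 set the rule, while the uroplakin genes UPK1A and UPK1B were higher in the cells and took no part in it. The windows are SCEL chr13:77535456-77535705, SPRR3 chr1:153001499-153001748, CLIC3 chr9:136996569-136996818, IGFL2 chr19:46147988-46148237, UPK1A chr19:35666267-35666516 and UPK1B chr3:119173348-119173597, all on the plus strand of GRCh38.p14 except CLIC3, on the minus strand, and taken from RefSeq gene starts. Gene spans given further below come from GENCODE, which can place a start elsewhere. By those spans the IGFL2 window lies inside the gene, and the last bases of the UPK1B window lie past its start. Capitals mark the AP-1 motif TGANTCA.
SCEL: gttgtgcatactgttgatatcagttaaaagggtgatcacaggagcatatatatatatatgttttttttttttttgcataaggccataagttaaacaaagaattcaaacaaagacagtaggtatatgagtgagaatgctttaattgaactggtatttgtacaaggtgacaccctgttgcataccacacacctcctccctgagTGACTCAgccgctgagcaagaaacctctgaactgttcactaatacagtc
SPRR3: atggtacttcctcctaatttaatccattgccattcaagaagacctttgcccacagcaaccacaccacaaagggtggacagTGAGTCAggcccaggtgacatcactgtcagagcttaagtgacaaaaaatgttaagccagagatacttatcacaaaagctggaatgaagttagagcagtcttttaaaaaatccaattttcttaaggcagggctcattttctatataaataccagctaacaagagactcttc
CLIC3: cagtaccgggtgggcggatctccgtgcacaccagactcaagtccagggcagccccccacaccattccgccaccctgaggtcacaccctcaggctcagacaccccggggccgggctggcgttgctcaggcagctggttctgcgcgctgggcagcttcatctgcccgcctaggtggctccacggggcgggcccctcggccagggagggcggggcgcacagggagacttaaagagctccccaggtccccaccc
IGFL2: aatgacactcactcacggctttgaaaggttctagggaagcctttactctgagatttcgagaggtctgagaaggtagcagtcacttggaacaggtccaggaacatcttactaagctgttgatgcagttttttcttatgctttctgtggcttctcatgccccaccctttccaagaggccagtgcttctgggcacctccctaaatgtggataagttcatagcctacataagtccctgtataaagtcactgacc
UPK1A: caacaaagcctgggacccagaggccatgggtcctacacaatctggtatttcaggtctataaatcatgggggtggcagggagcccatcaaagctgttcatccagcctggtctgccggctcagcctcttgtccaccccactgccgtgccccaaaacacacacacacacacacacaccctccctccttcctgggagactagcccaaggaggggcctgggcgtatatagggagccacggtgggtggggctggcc
UPK1B: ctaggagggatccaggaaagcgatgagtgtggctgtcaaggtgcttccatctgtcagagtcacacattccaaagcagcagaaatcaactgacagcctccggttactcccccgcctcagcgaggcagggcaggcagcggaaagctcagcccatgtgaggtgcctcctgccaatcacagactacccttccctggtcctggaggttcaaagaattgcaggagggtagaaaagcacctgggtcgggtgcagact

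The letters TGANTCA, which AP-1 factors such as FOS and JUN bind, were found 49 bases before the start of SCEL and 170 bases before that of SPRR3, and were not found in the windows of the other rule genes CLIC3 and IGFL2 or of UPK1A and UPK1B. They occur in 6.6% of the 27305 RefSeq promoter windows of this length, searched on both strands. The TEAD motif GGAATG, present in 11.9% of windows, was found in UPK1B at 186 bases, in SPRR3 at 91 bases and in CLIC3 at 189 bases, on either strand and without overlap with AP-1. Of the 18 genes at least 4-fold higher than in other cells at day 34 in both libraries and found in at least 20% of the cells, 12 had a window in the table: 0 held the AP-1 motif, 0 the GRHL motif AACNGGTT (1.48% of windows), 3 the TFAP2 motif GCCNNNGGC (19.7%) and 2 the TEAD motif. A match is a description of the letters and not a measured binding site.

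The cells made up a larger share of the day 34 libraries. They were 70 of 5902 cells (1.19%, 95% Clopper-Pearson interval 0.926 to 1.5), 41 of 5335 (0.769%, 0.552 to 1.04) and 55 of 6299 (0.873%, 0.658 to 1.14) in the day 21 libraries. At day 34 they were 296 of 4326 (6.84%, 6.11 to 7.64) and 771 of 12427 (6.2%, 5.79 to 6.64). The mean share was 6.52% ± 0.451 (SD, n = 2) at day 34 and 0.943% ± 0.217 (SD, n = 3) at day 21, a ratio of 6.92, and the days did not overlap. With every cell thinned to 5000 UMIs the means were 6.43% and 0.346%, a ratio of 18.6. Thinning also removes KRT5 UMIs, so marker cells that held KRT5 can enter the set. In day 34 replicate 2 the same cells gave 553 before thinning and 571 after. Cells that met the marker rule with KRT5 numbered 305 and 1489 at day 34 but 1, 4 and 3 at day 21. The ratio of 18.6 is therefore not one corrected for depth alone. The intervals cover counting error only. The difference is given without a test, because the cells were defined with it in view and 3 against 2 libraries cannot give an exact permutation p below 0.1.

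**Figure D1:**
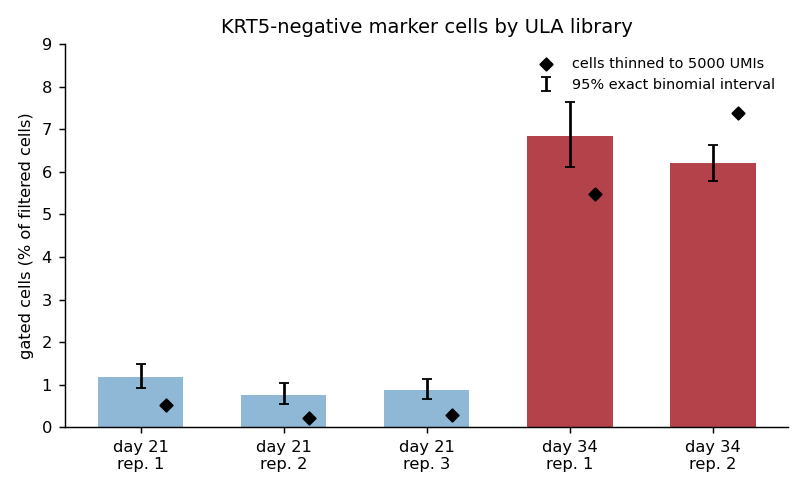
Share of filtered cells that met the rule, in percent, in each ULA library. Bars give the share with its exact 95% binomial interval and diamonds the share after each cell was thinned to 5000 UMIs; the day 34 bars stand at 6.84% and 6.2% and the day 21 bars at 0.769% to 1.19%.

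The cells that met the rule were deeper than the others. The median cell of the rule had 18956, 24116 and 16838 UMIs at day 21, against 11560.5, 10052.5 and 10297 in the other cells of the same libraries. At day 34 the medians were 17877 against 14053.5 and 6685 against 5907. With every cell thinned to 5000 UMIs the shares were 0.531%, 0.222% and 0.287% at day 21 and 5.48% and 7.37% at day 34, and the same cells unthinned gave 1.26%, 0.826%, 1.05%, 7.03% and 7.14%. Thinning left out 440, 374 and 1064 shallower cells at day 21, and 132 and 4682 at day 34. The 5 libraries shared 4 to 31 filtered barcodes in pairs, none of them of a cell that met the rule.

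The edge of the rule cut through a continuous range of cells. In the day 34 libraries 111 and 382 cells had exactly 2 of the 4 markers, 103 and 271 had 3, and 82 and 118 had all 4. Just outside, 279 and 720 KRT5-negative cells had 1 marker, and 44 and 239 cells with 2 or more markers had a single KRT5 UMI. In all, 305 and 1489 cells met the marker rule but held KRT5; they are called KRT5 marker cells here and are the nearest neighbours of the rule.

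IGFL2 was the marker most often present, in 91.2% and 94.9% of the day 34 cells of the rule, followed by CLIC3 in 82.8% and 69.1%, SCEL in 64.9% and 57.7%, and SPRR3 in 51.4% and 44%. At day 21 the order was different: CLIC3 was present in 85.7%, 85.4% and 78.2% of the cells and IGFL2 in 57.1%, 56.1% and 54.5%. In CPM (the usual depth-scaled count, here from UMIs summed over the cells of a set in 1 library), IGFL2 stood at 620 and 921 at day 34 and at 116, 37.7 and 88.0 at day 21. Having all 4 markers was the most frequent combination in replicate 1 (82 cells, 27.7%), and CLIC3 with IGFL2 in replicate 2 (166 cells, 21.5%). IGFL2 also had a UMI in 28.2% and 41.5% of the day 34 cells with KRT5 and fewer than 2 markers, at 75.5 and 250 CPM. The marker levels in the cells of the rule chose them and are a description.

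Transcripts of KRT5 and IGFL2 were also counted in cells gated as mesenchymal, which bears on the KRT5 condition. As a reference, mesenchymal-gated cells were those with UMIs in at least 3 of the 5 genes COL1A1, COL3A1, DCN, LUM and PDGFRB and none of the epithelial gene EPCAM, at median depths of 14729.5 and 5574 UMIs. In these, KRT5 had a UMI in 9.72% and 26.4% of the day 34 cells and IGFL2 in 2.95% and 11.8%, while SCEL, CLIC3 and SPRR3 stayed between 0.752% and 3.28%. Of the mesenchymal-gated cells, 4 of 1862 (0.215%, Clopper-Pearson 0.0586 to 0.549) and 18 of 1919 (0.938%, 0.557 to 1.48) met the rule, against 11.9% and 7.17% of all cells outside that gate. KRT5 had 596 UMIs in 181 mesenchymal-gated cells of replicate 1 and 1963 UMIs in 506 of replicate 2, and their source was not tested. The rule excludes a cell from 1 KRT5 UMI on, whatever its source. The share of KRT5 marker cells whose KRT5 UMIs are not their own was not measured. A cell that makes KRT5 can also show 0 UMIs of it, as the thinned counts above show, and that share was not measured either.

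The cells were epithelial, and their label as suprabasal squamous cells was met only in part. EPCAM had a UMI in 97.6% and 85.2% of them, against 46.7% and 64.4% of the other day 34 cells. Of the suprabasal keratins, KRT4 of wet mucosa was higher than in other cells in both libraries, whereas KRT13, its usual partner, was higher in replicate 1 and lower in replicate 2. KRT1 was near 0, at 1.60 and 2.14 CPM, and the skin envelope genes FLG and LOR had 0 to 0.306 CPM. The simple-epithelium keratins KRT8 and KRT18 and the uroplakins UPK1A, UPK1B and UPK2 were higher than in other cells in both libraries, so the cells are called by their rule below and are given no cell type name.

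Against all other day 34 cells of the same library, 20416 genes with at least 10 UMIs in each library were considered, without the 5 genes of the rule. Of these, 87 (0.426%) were at least 4-fold higher in the KRT5-negative marker cells in both libraries and 297 (1.45%) at least 4-fold lower. These values come from the cells the rule chose, so they are a description without a test. When the other cells were restricted to those with an EPCAM UMI, 22 genes were higher and 109 lower. The genes named next are the 18 higher genes that had a UMI in at least 20% of the cells in both libraries.

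Ranked by the smaller of the 2 ratios, UPK2 came first in this group, and the uroplakins UPK1A and UPK1B followed further down. Uroplakins coat the surface of urinary tract umbrella cells. UPK2 (chromosome 11, 118925164 to 118958559, GRCh38), which pairs with UPK1A in the membrane, stood at 33.6 CPM against 3.23 in other cells in replicate 1 and at 44.7 against 6.83 in replicate 2. UPK1A (chromosome 19, 35666517 to 35678481) stood at 44.5 against 7.82 and at 47.6 against 7.27 CPM. UPK1B (chromosome 3, 119173517 to 119205143), a tetraspanin like UPK1A, stood at 73.0 against 13.1 and at 58.2 against 10.4 CPM. All 3 were thus 5.57- to 10.4-fold higher in both libraries.

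Their partners in the urothelial list were low. UPK3B was at 4 against 0.726 CPM and 8.11 against 1.08 CPM, while UPK3A, which urothelial plaques contain, stood at 0.160 and 0.459 CPM and SNX31 at 0.160 and 0 CPM. Of the 5 urothelium genes considered, 4 passed 4-fold, beside 0.426% of all genes. The median log2 ratio was 2.48 and 2.71, beside -0.08 and -0.07 over all genes. A UMI of UPK1A, UPK1B or UPK2 was present in 70.3% and 56.5% of the KRT5-negative marker cells, in 63.6% and 37.0% of the KRT5 marker cells, and in 3.38% and 1.82% of mesenchymal-gated cells.

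SPP1 (osteopontin, a secreted phosphoprotein of bile duct and many other epithelia) was the gene of this group that differed most between the libraries. It stood at 568 against 94.8 CPM in replicate 1 and at 4683.2 against 799 CPM in replicate 2, so the ratio was alike while the level differed between the 2 libraries. Levels were higher in replicate 1 for KRT223P, a keratin pseudogene, at 434 against 39.9 and 77.8 against 13.7 CPM, and for CPXM2, a carboxypeptidase-like secreted protein, at 207 against 34.9 and 36.1 against 6.96 CPM. Reads of a pseudogene may come from a related keratin gene, so KRT223P is uncertain. IGFL2-AS1, named for its place near the rule gene IGFL2, stood at 245 against 33.4 and 366 against 84.0 CPM. Its annotated span (chromosome 19, 46189029 to 46203160, minus strand) shares 0 bases with IGFL2 (46143106 to 46161298, plus strand).

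The other higher genes included enzymes, membrane proteins and genes of vesicle fusion. CYP2W1, a cytochrome P450 of fetal gut and tumours, stood at 70.4 against 10.7 and 34.3 against 6.40 CPM. GPM6A, a membrane glycoprotein best known in neurons, stood at 19.2 against 3.18 and 34.0 against 5.29 CPM. STXBP6 (amisyn), which binds the vesicle fusion machinery, stood at 156 against 32.3 and 187 against 40.3 CPM. SPTSSB, a small subunit of serine palmitoyltransferase, the first enzyme of sphingolipid synthesis, stood at 12.6 against 2.61 and 63.7 against 14 CPM. ITIH5, FAM131C, SMIM5, CCDC69, BSPRY and the transcripts AC110619.1 and AP001207.3 completed the 18, and in every one of them mesenchymal-gated cells stood below all other sets plotted.

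Genes with the largest lower ratios, each with a UMI in at least 20% of the other cells, included genes of stroma and of basal epithelium. CXCL14, a chemokine of basal epithelium, stood at 82.2 against 561 CPM and at 356 against 2984.1 CPM. TPM2 (a tropomyosin), TNC (tenascin C) and MFAP4 (a microfibril protein) are made by contractile and stromal cells. TNC stood at 19.8 against 136 and 11.8 against 74.2 CPM. FABP7, a fatty acid binding protein, stood at 36.0 against 194 and 77.1 against 697 CPM, and in the KRT5 marker cells at 161 and 675 CPM, near the other cells. CPE, SERPINF1 and MIR100HG were among these genes too. With the condition on KRT5 dropped, MFAP4 stayed at least 4-fold lower, 1 of the 10 genes with the largest lower ratios, and 16 of the 18 higher genes stayed higher by that fold.

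Against other cells with an EPCAM UMI, UPK2, GPM6A, KRT223P and AC110619.1 stayed at least 4-fold higher in both libraries, 4 of the 18, and the smallest log2 ratio among all 18 was 1.44. Of the 10 genes with the largest lower ratios, 5 stayed at least 4-fold lower. This reference holds other epithelial cells in place of stroma, and 75.3% and 29.7% of its cells themselves had 3 or more of the 5 mesenchymal genes. Among the KRT5-negative marker cells that share was 48.3% (143 cells) and 20.2% (156 cells), beside which their COL3A1 level of 1387.4 and 712 CPM is to be read. Mesenchymal-gated cells had 2083.7 and 1284.7 CPM of COL3A1, and whether the remainder came from free RNA or doublets was not tested.

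**Figure D2:**
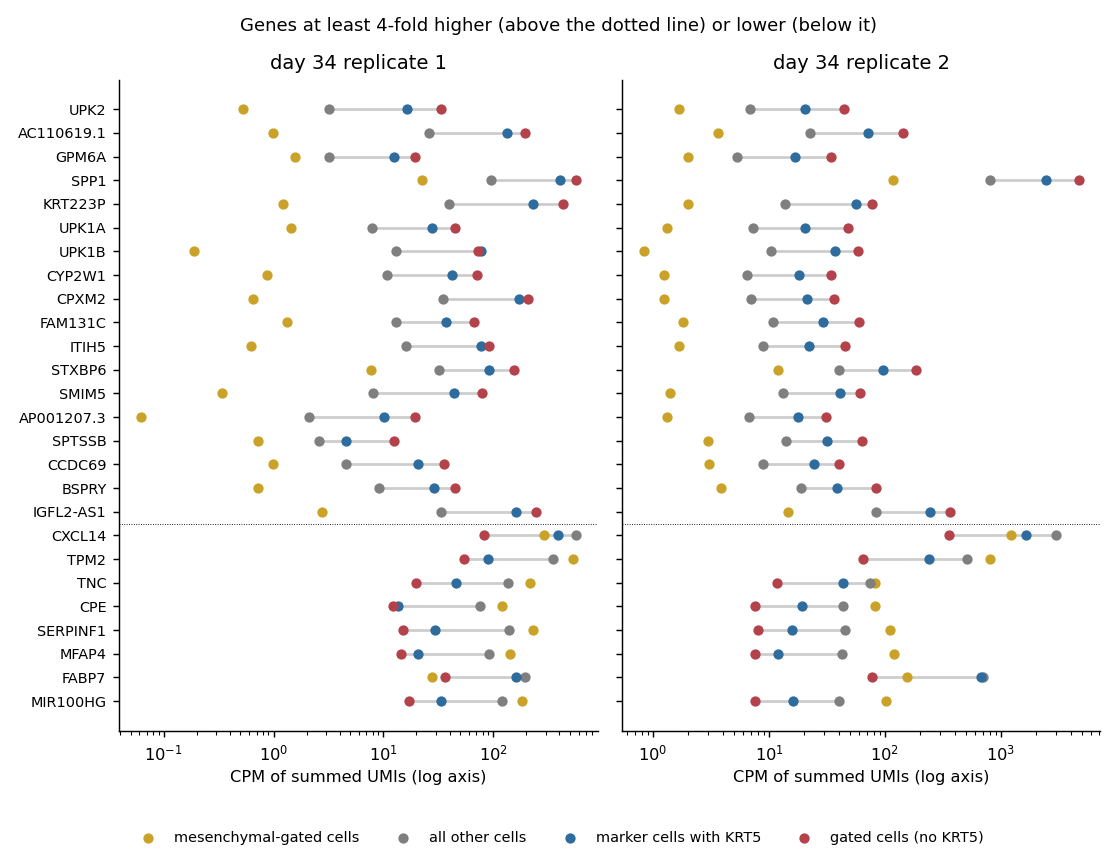
CPM of summed UMIs (log axis) of the higher and lower genes described in the text, in 4 cell sets of each day 34 library: KRT5-negative marker cells, marker cells with KRT5, all other cells and mesenchymal-gated cells. For UPK2 the first of these sets stands at 33.6 and 44.7 CPM and the second at 16.4 and 20.5 CPM, and the grey line spans the distance to all other cells.

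Suprabasal keratins were split. Of 16 in the list, 11 were considered. Of these 1 (KRT4) was at least 4-fold higher and 1 (KRT6B) at least 4-fold lower, beside 0.426% and 1.45% of all genes. The median log2 ratio was 1.78 in replicate 1 and -1.93 in replicate 2. Of all 20416 genes, 20% had log2 ratios above 0 in both libraries and 43.1% below 0 in both, beside which such counts for each list are to be read. KRT4 stood at 54.1 against 4.90 CPM and at 45.6 against 11.1 CPM. KRT13 stood at 67.8 against 19.8 CPM in replicate 1 but at 80.7 against 632 CPM in replicate 2, where the KRT5 marker cells had 1293.1 CPM. Its level in the KRT5-negative marker cells was thus alike in the libraries, and the other cells set the direction.

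KRT13 in replicate 2 lay below the 96.1 CPM of mesenchymal-gated cells, and whether either came from free RNA was not tested. KRT6A, an injury- and activation-related keratin, stood at 690 against 274 CPM in replicate 1 and at 39.2 against 149 CPM in replicate 2, again below the mesenchymal-gated 54.1 CPM; KRT6A, KRT6B and KRT6C are near-identical, so their split is uncertain. KRT10, the acidic keratin of skin suprabasal layers, stood at 489 against 383 and at 546 against 833 CPM, with 336 and 514 CPM in mesenchymal-gated cells. KRT24, KRT78 and KRT80 were low, with KRT80 at 14.7 against 2.53 and 7.81 against 3.97 CPM. A UMI of KRT13 or KRT6A was present in 53% and 34.2% of the cells, against 78.0% and 77.5% of KRT5 marker cells and 6.18% and 20.7% of mesenchymal-gated cells. In all other cells the shares were 17.5% and 45.9%, so in replicate 2 the cells of the rule lay below them.

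Keratins of simple epithelia, the keratins of single-layered linings, were present throughout. None of the 5 considered passed 4-fold, and the median log2 ratio was 1.53 and 0.46. KRT8 stood at 2836.0 against 979 and 2272.4 against 1446.7 CPM, and its partner KRT18 at 2675.0 against 977 and 2900.2 against 1395.4 CPM. KRT7, of ducts and urothelium, stood at 453 against 133 and 195 against 142 CPM. KRT19 was higher in replicate 1 (3764.9 against 1868.4 CPM) and lower in replicate 2 (1875.5 against 2265.0 CPM).

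Basal genes other than KRT5, which the rule did not use, were low in replicate 2. None of the 14 passed 4-fold in both libraries, and the median log2 ratio was -0.02 and -1.86. TP63, the master regulator of the basal layer, stood at 11.4 against 27.7 and 3.37 against 28.6 CPM. ITGA6, a hemidesmosome integrin, stood at 30.4 against 109 and 16.2 against 196 CPM, and KRT14 at 0.480 against 2.72 and 0.765 against 1.76 CPM. KRT17 did not follow them, at 3334.9 against 1052.9 and 1815.4 against 2533.1 CPM. The part of the KRT5 condition in these levels was not tested.

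Among cornified envelope genes, several of the cross-linked scaffold were present and those of the terminal skin layers were at or near 0. Of 29 in the files, 14 were considered, 7 were above 0 in both libraries (20% of all genes were) and none passed 4-fold, with median log2 ratios of 0.86 and 0.47. SPRR2F stood at 177 against 20.6 and 948 against 309 CPM. The plakins that tie the envelope to desmosomes were PPL (periplakin) at 200 against 58.7 and 138 against 68.2 CPM, and EVPL (envoplakin) at 23.7 against 3.20 and 11.9 against 6.66 CPM. IVL (involucrin), also of the scaffold, had a low level, at 3.68 against 0.601 CPM in replicate 1 and 6.12 against 6.91 CPM in replicate 2. FLG, FLG2, CRNN and the LCE genes of the list had 0 UMIs in these cells, where 3 UMIs, the limit that a count of 0 allows, correspond to 0.480 and 0.459 CPM. A UMI of IVL or SPRR1B was present in 22% and 20.8% of the cells, 35.7% and 48.1% of KRT5 marker cells and 0.483% and 2.76% of mesenchymal-gated cells.

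Of 15 genes of membrane mucins and glycocalyx considered, MAL and MUC15 passed 4-fold, beside 0.426% of all genes. In both libraries 9 were above 0 and 2 below (20% and 43.1% of all genes), and the median log2 ratio was 1.74 and 1.27. MAL, a raft protein of apical transport in squamous mucosa and urothelium, stood at 15.5 against 1.30 and 25.6 against 2.87 CPM. MUC15 stood at 11.8 against 0.992 and 11.9 against 2.61 CPM, and MUC16, the large mucin of ocular and genital mucosa, at 126 against 21.3 and 15.9 against 5.04 CPM. MUC21, a mucin of oesophageal squamous cells, had 0 UMIs. A UMI of KRT4 or MAL was present in 31.1% and 21.0% of the cells, in 25.6% and 17.2% of KRT5 marker cells and in 0.215% and 0.782% of mesenchymal-gated cells.

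Junction, protease and regulator genes gave the rest of the epithelial picture. Of 21 desmosome and junction genes, none passed 4-fold and 13 were above 0 in both libraries, beside 20% of all genes; CLDN4, a sealing claudin, stood at 656 against 154 and 536 against 180 CPM, and DSG3, a desmoglein of deep squamous layers, at 7.52 against 8.03 and 2.75 against 21.9 CPM. Of 21 squamous proteases and inhibitors, the cystatin CST6 (44.6 against 10.6 and 48.5 against 10.7 CPM) and SERPINB2 (62.7 against 7.75 and 23.3 against 4.99 CPM) passed 4-fold, beside 0.426% of all genes. In that list 9 were above 0 in both libraries and 3 below, beside 20% and 43.1% of all genes, and the median log2 ratio was 1.16 and 0.00. The kallikreins KLK5 and KLK7, which shed skin scales, had 0 to 0.480 CPM. Of 22 epithelial transcription factors, none passed 4-fold and 13 were above 0 in both libraries, beside the same 20%. GRHL3, a barrier regulator, stood at 12.2 against 1.73 and 22 against 5.78 CPM, and ELF3, of surface epithelia, at 174 against 35.5 and 124 against 67.4 CPM.

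Of 10 genes of amnion and early surface ectoderm none passed 4-fold, 7 were above 0 in both libraries and 3 below (20% and 43.1% of all genes), and the median log2 ratio was 0.51 and 0.15. VTCN1, an immune-checkpoint ligand also found in amnion, stood at 139 against 28.6 and 45.2 against 12 CPM, and GABRP, a GABA receptor subunit, at 220 against 56.5 and 283 against 87.2 CPM. Both had a UMI in the same cell in 55.4% and 18.5% of the KRT5-negative marker cells, against 51.1% and 17.6% of KRT5 marker cells and 0.322% and 0.469% of mesenchymal-gated cells. Of the trophoblast list, ELF5 and VGLL1 were higher in both libraries, with VGLL1 at 50.1 against 12.7 and 66.1 against 16.1 CPM, while the placental hormone gene CGB3 and the fusion gene ERVW-1 had 0 UMIs. INSL4, a placental insulin-like hormone gene outside that list and named after its values were seen, stood at 4.32 against 0.712 and 88.3 against 11 CPM.

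Ductal genes, of the bile duct lining, were in part higher. Their summed level was 5364.1 against 2363.3 CPM in replicate 1 and 7225.6 against 3644.9 CPM in replicate 2, most of it from SPP1 and KRT19. Of the 9 genes 1 (SPP1) passed 4-fold, beside 0.426% of all genes. In both libraries 4 were above 0 and 1 below, beside 20% and 43.1% of all genes. The median log2 ratios were 1.01 and -0.21.

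Markers of the mesenchyme, of leukocytes and of the airway were lower or near 0. All 11 mesenchymal genes were lower in both libraries, beside 43.1% of all genes. Their medians were -2.22 and -1.91, with COL1A1 at 104 against 481 and 49.6 against 187 CPM. ALB, the albumin gene of hepatocytes, had 0 UMIs; APOA1, of the same list, stood at 161 against 5.98 CPM in replicate 1 and 68.4 against 164 CPM in replicate 2. PTPRC, the pan-leukocyte gene, had 0 UMIs, and the airway genes SCGB1A1 and FOXJ1 had 0. Cell cycle genes were lower in both libraries in 13 of 17, beside 43.1% of all genes, with medians of -1.54 and -0.47, and MKI67 stood at 23.2 against 81.6 and 76.4 against 111 CPM.

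**Figure D3:**
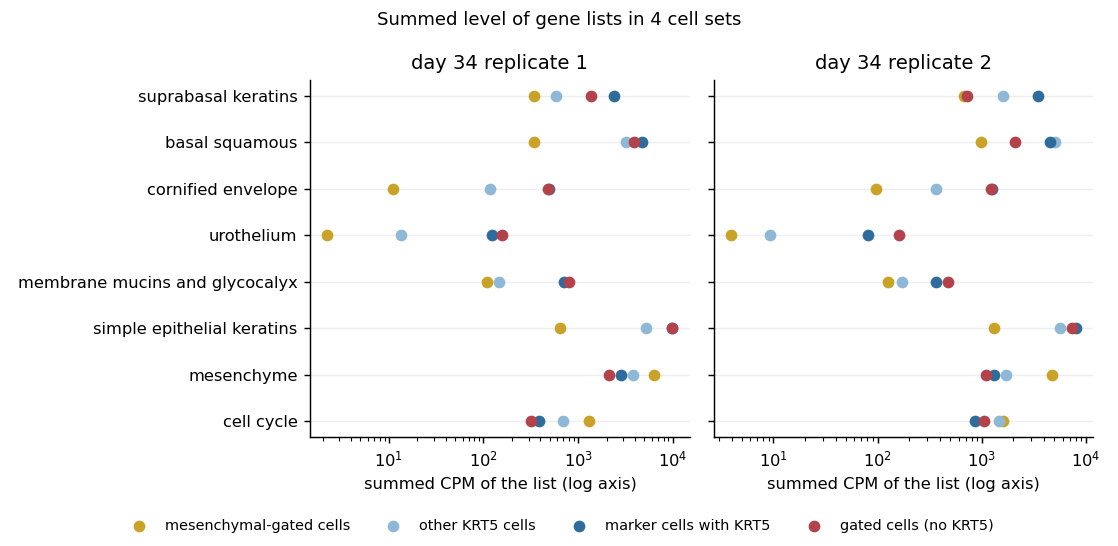
Summed CPM (log axis) of 8 gene lists in the KRT5-negative marker cells, the marker cells with KRT5, the other KRT5 cells and the mesenchymal-gated cells of each day 34 library. The urothelium list stands at 155 and 159 CPM in the KRT5-negative marker cells and at 2.24 and 3.89 CPM in mesenchymal-gated cells, while the suprabasal keratins stand at 1365.9 and 731 CPM, below the KRT5 marker cells at 2371.3 and 3503.0 CPM.

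Side by side with the KRT5 marker cells, several suprabasal keratins and basal genes were lower and UPK2 was higher. Of 15457 genes with enough UMIs, 36 (0.233%) were at least 2-fold higher and 238 (1.54%) at least 2-fold lower in both libraries. UPK2 was the only gene of the lists among the higher ones, at 33.6 against 16.4 and 44.7 against 20.5 CPM. UPK1A stood at 44.5 against 27.8 and 47.6 against 20.3 CPM, and UPK1B at 73.0 against 76.6 and 58.2 against 37.3 CPM, so its direction differed between the libraries. Of the 11 suprabasal keratins, 5 were at least 2-fold lower (KRT1, KRT6A, KRT6B, KRT6C and KRT16), with list medians of -0.70 and -3.58. Of 21 junction genes 4 were at least 2-fold lower (CLDN1, DSG3, GJB2 and PKP1), of 11 envelope genes 1 (SPRR1B, at 47 against 128 and 74.2 against 267 CPM), and of 18 proteases and inhibitors 1 (SERPINB13). SPRR2F, also of the envelope list, stood higher at 177 against 108 and 948 against 756 CPM.

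KRT4 differed in direction between the libraries, at 54.1 against 36.1 CPM and 45.6 against 49.5 CPM. Of the 14 basal genes, 7 were at least 2-fold lower, among them TP63, ITGA6 and COL17A1. Because KRT5 divided the sets, these differences describe the division and are not tested. KRT5 marker cells were also deeper, with medians of 26511 and 10022 UMIs.

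Within the KRT5-negative marker cells, some genes were graded by the number of markers and others were not. In cells with 2, 3 and 4 markers KRT4 stood at 8.71, 54.5 and 95.9 CPM in replicate 1 and at 22.2, 40.0 and 97.1 CPM in replicate 2. UPK1B stood at 27.1, 71.3 and 117 CPM and at 34.9, 48.8 and 115 CPM, and MAL at 5.63, 16.8 and 23.4 CPM and at 10.1, 22.1 and 59.1 CPM. COL1A1 went the other way, from 155 through 116 to 42.9 CPM and from 60.5 through 46.3 to 35.3 CPM. KRT6A stood at 833, 649 and 600 CPM in replicate 1 and at 12.8, 65.4 and 44.1 CPM in replicate 2. In replicate 1 VTCN1, at 104, 160 and 149 CPM, and GABRP were highest with 3 markers, while in replicate 2 VTCN1 went from 40.6 through 46.7 to 50.9 CPM and GABRP was likewise highest with 4. Depth moved with the number of markers, with medians of 14862, 18368 and 22453 UMIs in replicate 1 and 5746, 7181 and 11262 in replicate 2, and its part in these differences was not tested.

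**Figure D4:**
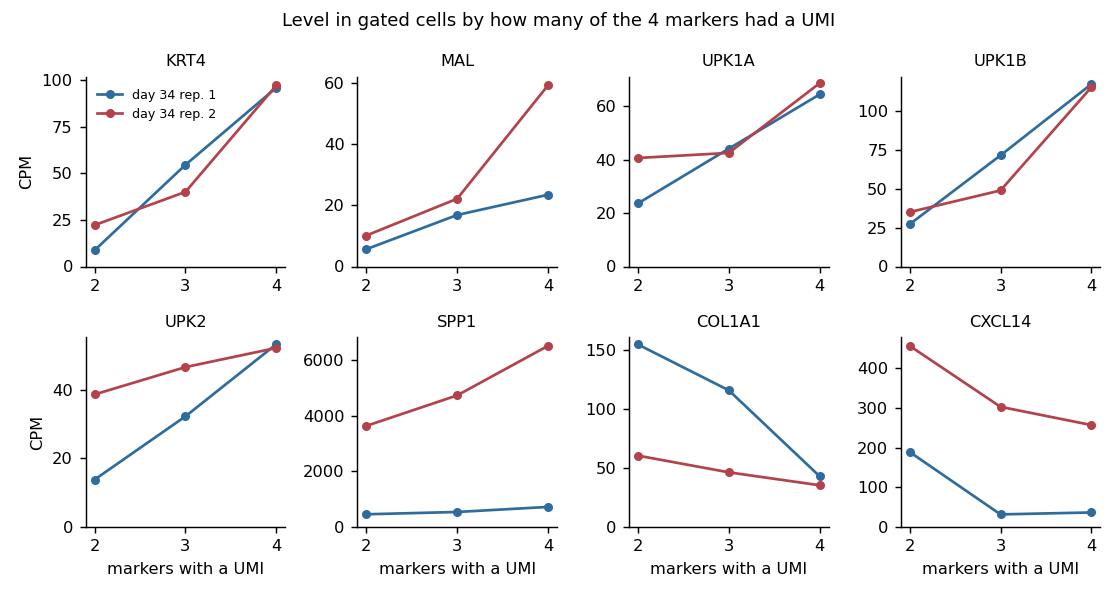
CPM of 8 genes in the KRT5-negative marker cells of each day 34 library, split by whether 2, 3 or 4 of the rule's markers had a UMI. KRT4, MAL and the uroplakins are highest with 4 markers in both libraries, where KRT4 is at 95.9 and 97.1 CPM, and COL1A1 is lowest there.

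Unsupervised clusters, built without the 5 rule genes, placed the cells in 1 main cluster of each library. Cluster 1 held 75.3% of the replicate 1 cells, which made up 38.5% of its cells of that library, and cluster 2 held 88.2% of the replicate 2 cells, which made up 32.8%. These 2 clusters were nearly specific to their library. The leading genes of cluster 1 included MUC16, CPXM2, S100A9, KRT6A and VTCN1, and those of cluster 2 INSL4, SPP1, CUZD1, UPK2 and GABRP. Cluster 10, led by S100A8, KRT13 and SPRR1B, held 1244 cells of replicate 2 and 3 (0.389%) of that library's KRT5-negative marker cells. Predicted doublets made up 4.73% and 8.56% of the KRT5-negative marker cells at day 34 and 3.52% and 10.8% of the other cells.

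The rare day 21 cells carried part of the profile. Of the 18 higher genes 13 were at least 4-fold higher than in the other cells in all 3 day 21 libraries, while of the 10 genes with the largest lower ratios 1, MFAP4, was at least 4-fold lower in all 3 and 8 were lower in all 3. The same 4 markers chose the day 21 cells. The shares of all genes past these limits were not computed, so the counts are a description. FABP7 had day 21 log2 ratios of -0.36, 0.25 and 0.15, and CXCL14 of -1.13, 0.29 and -1.91. UPK1B was 2.20- to 2.85-fold higher. UPK2 stood at 48.5, 44.7 and 29.9 CPM, UPK1A at 30.6, 22.8 and 29.9 CPM, and a UMI of UPK1A, UPK1B or UPK2 was present in 72.9%, 70.7% and 61.8% of them. VTCN1 stood at 264, 262 and 236 CPM, and VTCN1 with GABRP was present in 85.7%, 85.4% and 89.1%. That pair was also present in 66.7%, 64.5% and 56.0% of the day 21 cells with KRT5 and fewer than 2 markers. In all other day 21 cells it was present in 21.8%, 13.0% and 17.6%. KRT13 or KRT6A was present in 8.57%, 2.44% and 5.45% of the day 21 cells of the rule, and IVL or SPRR1B in 2.86%, 0% and 3.64%. The day 21 cells were 166 in number, and 0 of 41 cells allows a share of up to 7.32% of cells with a UMI of the latter pair in replicate 2 (3 counts of the total).

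Day 34 was compared with day 21 within these cells with edgeR's quasi-likelihood test on UMIs summed per library, with Benjamini-Hochberg adjustment over 10381 genes. At day 34, 236 genes rose (2.27%) and 140 fell (1.35%). The filter on low counts asked for about 6.65 CPM in 2 libraries: 96 of the genes that rose met it only at day 34, and 42 of those that fell did not meet it at day 34. A gene that passed through 1 day alone was tested because of its level on that day, so its call adds little beyond its values. Whether the cells changed or another kind of cell met the rule at day 34 cannot be told apart. Of the genes that rose, 198 (83.9%) were also higher without overlap between days in mesenchymal-gated cells and 216 (91.5%) in all other cells, beside 33.2% and 36.4% of all genes tested. Of the same genes, 46 (19.5%) stood at or below the mesenchymal-gated level in both day 34 libraries, beside 47.4% of all genes tested. Of those that fell, 70 (50%) were also lower without overlap in mesenchymal-gated cells and 96 (68.6%) in all other cells, beside 18% and 16.9% of all genes tested. All other cells include the KRT5 marker cells, which numbered 305 and 1489 at day 34 but 1, 4 and 3 at day 21.

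Several envelope genes and 2 suprabasal keratins were called higher at day 34. Of these, only SPRR2F and PPL passed the filter at day 21 too. KRT13 stood at 2.66, 2.63 and 2.72 CPM at day 21 and at 67.8 and 80.7 CPM at day 34, a log2 change of 4.83 (SE 0.30, edgeR adjusted p = 1.28e-04) in a gene that met the filter at day 34 alone. With no filter its edgeR adjusted p was 0.000272, from the same counts, so neither p adds much beyond these values. The days did not overlap, but mesenchymal-gated cells also went from at most 0.0576 CPM to 0.902 and 96.1 CPM, so in replicate 2 the level is no higher than there. SPRR1B, a cross-linked envelope protein, stood at 1.33, 0 and 1.81 CPM and then at 47 and 74.2 CPM, against 0.249 and 17.6 CPM in mesenchymal-gated cells. Its log2 change was 5.82 (SE 0.49). SPRR1B too met the filter at day 34 alone, so its edgeR adjusted p of 6.11e-04 adds little beyond these values.

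Of the 29 cornified envelope genes in the files 24 did not pass the filter and were not tested. SPRR2F and PPL passed it at day 21 too and rose; SPRR1B, EVPL and KRTDAP rose as well but passed it through day 34 alone, so the count of 5 is no support for the list. PPL stood at 80.4, 48.2 and 51.7 CPM at day 21 and at 200 and 138 CPM at day 34, with 3.89 and 14.5 CPM in mesenchymal-gated cells. Of 6 suprabasal keratins tested, KRT13 and KRT6A rose, both through day 34 alone, KRT6A from 5.98, 0 and 0 CPM to 690 and 39.2 CPM, the last of which lay below the mesenchymal-gated 54.1 CPM. KRT4 did not pass the test, at 19.3, 4.38 and 22.7 CPM and then 54.1 and 45.6 CPM (log2 change 1.74, edgeR adjusted p = 0.0504). Of 17 junction genes tested, 14 passed the filter at day 21, and of these the desmosomal cadherins DSC2 and DSC3 rose, beside 140 of 9748 genes. CLDN7 fell among the 17, beside 1.35% of all genes. The desmosomal cadherin DSG1 was called higher too. It had 0 UMIs in all 3 day 21 libraries and 39.2 and 17.4 CPM at day 34, so it was tested only through day 34 and is left out of that count.

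Of the uroplakins tested, UPK1B alone rose, from 7.31, 7.02 and 9.07 CPM to 73.0 and 58.2 CPM. Its log2 change was 3.13 (SE 0.28, edgeR adjusted p = 8.14e-04), and mesenchymal-gated cells stayed at or below 0.828 CPM. In all other cells UPK1B was also higher at day 34 without overlap between days. Those cells include the KRT5 marker cells, which numbered 305 and 1489 at day 34 but 1, 4 and 3 at day 21. The KRT5 marker cells stood at 76.6 and 37.3 CPM of UPK1B at day 34, and their part in that rise was not tested. The level of UPK1B went with the number of rule markers as well, and the part of that in its change was not tested. UPK2 had a log2 change of -0.03 (SE 0.26, edgeR adjusted p = 0.967) and UPK1A one of 0.78 (SE 0.23, edgeR adjusted p = 0.0992). The difference between these changes was not tested.

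IGFL2-AS1 rose from 29.2, 21.0 and 24.5 CPM to 245 and 366 CPM, a log2 change of 3.65 (SE 0.25, edgeR adjusted p = 1.37e-04). In all other cells IGFL2-AS1 went from 3.99, 2.14 and 2.16 CPM to 33.4 and 84.0 CPM. Its rise was thus not confined to the cells of the rule. The other cells include the KRT5 marker cells, which had 160 and 246 CPM of it at day 34. The rule gene IGFL2 was present in a larger share of these cells at day 34. IGFL2-AS1 also went up with the number of rule markers in both day 34 libraries. The part of either in its change was not tested. HIF3A, a hypoxia-inducible factor subunit, rose from 10.6, 9.65 and 9.98 CPM to 183 and 128 CPM, a log2 change of 4 (SE 0.28, edgeR adjusted p = 1.37e-04). In all other cells HIF3A went from 18.3, 25.6 and 17.9 CPM to 136 and 88.3 CPM. INHBA, the activin A subunit, stood at 3.32, 0.877 and 3.63 CPM and then at 38.7 and 53.3 CPM; mesenchymal-gated cells had at least 111 CPM in both day 34 libraries. The metallothionein MT1X, FAM131C, the RAS-like RERG and the tubulin TUBA4A complete the 10 genes with the smallest adjusted p among those that rose. Of these 10, KRT13, SPRR1B, MT1X, RERG, INHBA and TUBA4A met the filter at day 34 alone and the other 4 at both days.

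Of 19 regulators tested, 17 passed the filter at day 21, and of these 2 rose, KLF4 among them, beside 140 of 9748 genes. HOPX was called higher too, but was tested through day 34 alone and is left out of that count. TFAP2B, the 1 that fell, is an AP-2 factor of surface ectoderm and fell from 73.8, 73.7 and 111 CPM to 15.4 and 13.2 CPM (log2 change -2.53, SE 0.28, edgeR adjusted p = 0.00186). KLF4, which drives epidermal barrier formation, stood at 19.9, 12.3 and 19.1 CPM and then at 132 and 40.4 CPM. Of 10 Notch genes tested, 8 passed the filter at day 21, and of these the receptor NOTCH3 rose, beside 140 of 9748 genes. The Notch target NRARP was called higher too, but was tested through day 34 alone and is left out of that count. Of 10 retinoid genes tested 3 fell, the retinal dehydrogenase ALDH1A1 and the retinol receptor STRA6 among them, and CRABP1 rose. ALDH1A1, at 26.3 CPM or less at day 21 and at 1.28 and 3.67 CPM at day 34, met the filter at day 21 alone. The count of 3 is therefore not read against the 1.35% of all genes. STRA6 stood at 35.2, 33.3 and 23.6 CPM and then at 13.8 and 11.5 CPM.

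The genes that fell were of several kinds. IGDCC3, an immunoglobulin superfamily membrane protein of early embryonic tissue, fell from 145, 155 and 208 CPM to 19.2 and 11.3 CPM (log2 change -3.40, SE 0.33, edgeR adjusted p = 8.14e-04). CTH, an enzyme of cysteine synthesis, MTHFD2, an enzyme of mitochondrial folate metabolism, and INHBE, an activin subunit, fell, with CTH from 38.6, 27.2 and 28.1 CPM to 4 and 4.74 CPM. CTH and INHBE met the filter at day 21 alone. The fibrinogen genes FGB and FGG fell, but neither met the filter at day 34, so their count of 2 among 9 hepatocyte genes tested is not read against the 1.35% of all genes. FGG went from 10.6, 11.4 and 10.9 CPM to 0.640 and 0.153 CPM (4 and 1 UMIs), and in all other cells from 26.8, 27.5 and 29.6 CPM to 1.86 and 1.63 CPM. IGFBP7, the matrix protein FBLN1 and WDR86 were also among the genes with the smallest adjusted p of those that fell. Without a day 21 library the call was lost in 3 runs for MTHFD2, FGG and WDR86 and in 2 for INHBE and FBLN1.

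JUN, EGR1 and ATF3, immediate early genes that enzymatic dissociation is known to raise, also rose, 3 of 11 stress genes tested, beside 2.27% of all genes. JUN stood at 372, 119 and 360 CPM and then at 1249 and 877 CPM, and in mesenchymal-gated cells at 96.4 to 177 CPM and then at 339 and 223 CPM. They moved with the longer trypsin treatment of day 34, and its part in the result was not tested. Of 17 cell cycle genes 0 passed the test in either direction, with a median log2 change of -0.85. In counts simulated at a dispersion of 0.1 the test recovered 10% of 2-fold rises and 4% of 2-fold falls. The dispersion of the data was lower, with a square root of 0.24, so the test can recover more there. Its recovery at that dispersion was not measured, and the count of 0 is not read as a sign that these genes stayed level.

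The number of calls moved with the libraries included. Without any 1 of the day 21 libraries it called 18 to 25 genes up and 4 to 7 down, without day 34 replicate 1 it called 336 and 298, and without replicate 2 it called 1300 and 941. With 1 day 34 library left, the spread comes from the 3 day 21 libraries alone and the lone library is assumed to vary like them. IGFL2-AS1, HIF3A, UPK1B and FAM131C, which passed the filter at both days, kept their call in each run without a day 21 library. Most of the 236 did not. Leaving out a library keeps the larger share of cells with IGFL2 at day 34. The kept call of IGFL2-AS1 therefore does not bear on the part of that share. Without the low-count filter 163 genes rose and 52 fell.

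**Figure D5:**
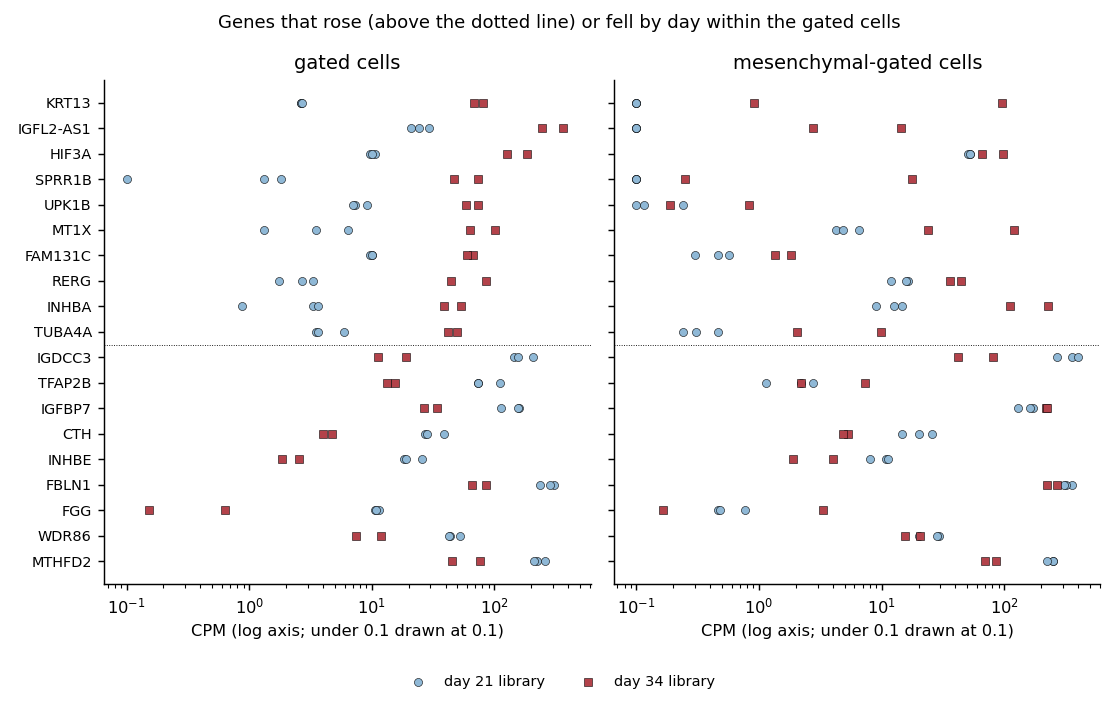
CPM (log axis, values under 0.1 drawn at 0.1) of genes with the smallest adjusted p in each direction, in the KRT5-negative marker cells and, beside them, the mesenchymal-gated cells of the same libraries. Circles are the 3 day 21 libraries and squares the 2 day 34 libraries; for UPK1B the marker cells go from 7.02 to 9.07 CPM to 58.2 and 73.0 CPM, while mesenchymal-gated cells stay at or below 0.828 CPM.

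The rule also found cells in organoids it was not made for. In the 14 OS libraries of day 25, 702 of 85951 cells (0.817%) met it, from 0 of 9615 (3 counts, the limit that 0 allows, are 0.0312%) in the first TGF-beta1 control library to 84 of 3089 (2.72%, 2.17 to 3.36) in the first OA library. In untreated OS organoids the shares were 1.74% and 1.14%, in OA controls 1.70% and 2.65%, with OA 2.72% and 2.05%, and with PA 0.248% and 1.03%. Both TGF-beta1 libraries, both of their controls and both PA controls lay at or below 0.418%. Median depth over these libraries ran from 1310 to 14124 UMIs, so no order of treatments is read from the shares.

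In the 8 OS libraries with at least 20 such cells, genes that were high in the ULA organoids differed in how often they were high again. MAL was higher than in the other cells in 8 of 8 libraries, at least 4-fold in 7, and KRT4 in 7 of the 7 that gave a ratio, at least 4-fold in 6. UPK2 was higher in 7 of 8, at least 4-fold in 7, and UPK1A in 6 of the 6 that gave a ratio. UPK1B was higher in 7 of 8 but at least 4-fold in 3, with log2 ratios from -1.21 to 2.95. VTCN1 was higher in 8 of 8 and GABRP in 7 of 8, while KRT13 was higher in 5 of 8 and at least 4-fold in 0. SPP1 was higher in 7 of 8, at least 4-fold in 2, with a median log2 ratio of 1.15. CXCL14, lower in the ULA cells, was higher in 5 of 8, with a median log2 ratio of 0.26. The same 4 marker genes chose these cells, so their levels are a description too.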

How the data were processed

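For each of 19 libraries the authors deposited a matrix of UMI counts by gene and barcode, not normalized, per the file headers. The submitters' processing notes name bcl2fastq, Cell Ranger 3.0.2, Scanpy and GRCh38; the annotation release is not given in the sources used here. Total counts of the ULA libraries were 73799160 to 92522222 UMIs, and the precision of shares is set by the 4326 to 12427 filtered cells per library.

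The rule, gene lists and tests were chosen with earlier results of these data known. Cells were filtered and gated as described, and UMIs summed per library and cell set, with gene positions from GENCODE on GRCh38 (Python 3.11.15, scanpy 1.11.5). Genes against other cells were named by the smaller of 2 log2 CPM ratios (4-fold, at least 20% detection) and for the day test by adjusted p (10 each way). Ratios against 0 used a floor of 3 UMIs per library. The day test used edgeR 4.0.16 (TMM, filterByExpr, glmQLFit), was checked on simulated data, and had DESeq2 1.42.0 as an alternative. Scrublet's automatic threshold marked 0 to 3.05% of cells in 4 ULA libraries and 18.2% in day 34 replicate 2, so doublets were removed only as an alternative, by highest score at 0.8% per 1000 barcodes. Same-numbered libraries had deviations correlated at 0.09 and -0.01, so numbers were not taken as pairs. Some genes are not reported here.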

Additional observations from a re-analysis of the deposited data

Results flagged for a closer look

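For 4 of the genes named in the day test, the KRT5-negative marker cells differed from the other cells of their library one way in all 3 day 21 libraries and the opposite way in both day 34 libraries. The values are log2 ratios of CPM, marker cells over other cells, and the difference between days was not tested. HIF3A had ratios of -0.78, -1.41 and -0.85 at day 21 and 0.43 and 0.53 at day 34, a difference of means of 1.49. RERG, a RAS-like growth inhibitor, had -0.62, -1.43 and -0.54 and then 1.06 and 1.16, a difference of 1.97, from 5, 2 and 3 UMIs in the day 21 cells. TFAP2B had 0.54, 1.38 and 0.99 and then -0.80 and -1.11, a difference of -1.92. WDR86 had 0.53, 0.56 and 1.43 and then -0.80 and -0.86, a difference of -1.67.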

How the results depend on the processing

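The difference in share between days, 5.58 percentage points, was 3.50 with at least 3 markers, 15.1 without the KRT5 condition, 5.03, 4.53, 5.15 and 3.46 with SCEL, CLIC3, SPRR3 or IGFL2 left out, and 6.08 after thinning to 5000 UMIs. Leaving out a library gave 5.26 to 5.90. The ratio of the mean shares, 6.92, was 18.6 after thinning, which also removes KRT5 UMIs, and 18.6 with at least 3 markers. It was 16.2 without the KRT5 condition, 14.1 without CLIC3, and 7.03 to 9.10 with another marker left out. Against other day 34 cells, 87 genes higher and 297 lower became 149 higher without the KRT5 condition, 22 and 109 against EPCAM cells, 54 higher against cells as deep as the median marker cell, 494 and 1381 at 2-fold, and 5 and 13 at 8-fold. Genes lower numbered 508 with predicted doublets removed and, in 2 settings chosen after seeing the data, 516 for marker cells with fewer than 3 mesenchymal genes and doublets removed, and 646 for those of the main clusters. Reading 1 day 34 library alone gave 182 to 329 higher and 545 to 890 lower, since fewer libraries then have to agree.

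In the day test (236 rose, 140 fell), DESeq2 called 232 fallen genes, dropping the low-count filter left 52, and leaving out a library gave 18 to 1300 rises and 4 to 941 falls. The replicate block gave 106 rises and 49 falls, of which 99 and 40 were among the genes called without it; numbers are not taken as pairs. Of 180 values for the 20 named day genes, 164 kept direction and call, 16 lost the call, each without a day 21 library, and 0 reversed. The cause of the other shifts was not tested.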
